A study of Mus musculus with 28 samples.

Results

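The interferon regulatory factors are transcription factors that share a DNA-binding domain. In this series 8 of them, Irf1, Irf2, Irf3, Irf4, Irf5, Irf7, Irf8 and Irf9, were followed through spleen RNA of mice fed abscisic acid (ABA) and challenged with lipopolysaccharide (LPS). They were found by symbol among probe sets that name a single gene, and a gene with several probe sets was represented by the one with the highest mean. The family makes up 8 of the 18193 genes represented in this way. All 8 passed the filter on low values in both fits described below.

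Biotin-labelled RNA was measured on 28 arrays of a 1-colour mouse expression array. The labels give spleen as the source, and their protocols name splenocytes. Mice ate a diet with ABA, a plant hormone, or a control diet, and were or were not challenged with LPS, the outer membrane component of Gram-negative bacteria that TLR4 senses. The PPARg-null mice carried floxed PPARg alleles and a Cre recombinase driven by the MMTV promoter (strain label PPAR g flfl; MMTV-Cre+). The wild-type mice carried the same floxed alleles without Cre (PPAR g flfl; MMTV-Cre-), so floxed PPARg is common to all groups. The protocols call the deletion specific to spleen, and age, sex, LPS dose and time are not given in the sources used here.

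The 12 groups belong to 2 experiments. The wild-type-only experiment had 4 arrays each for ABA with LPS and control diet with LPS, and 2 arrays each for ABA without LPS and control diet without LPS. The two-genotype experiment had 2 arrays in each of 8 groups, null and wild-type mice on either diet, with and without LPS. Values are the authors' log2 GCRMA values, and the experiments appear to have been normalised separately, so levels were compared within an experiment only. Precision is limited by how few arrays there are. Whether replicates came from separate mice is not stated, so each p-value reflects the spread among these samples alone, and that spread may be technical.

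Mammalian interferon regulatory factors link the sensing of microbes to interferon production and to the response of cells to interferon. Irf3, Irf5 and Irf7 are activated by phosphorylation downstream of pattern recognition receptors such as TLR4, and Irf3 and Irf7 drive transcription of type I interferon genes. Irf9 is the DNA-binding subunit of the ISGF3 complex, Irf1 activates and Irf2 often opposes transcription at overlapping sites, and Irf4 and Irf8 direct the development and function of lymphocytes, macrophages and dendritic cells, cell types the spleen is rich in.

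The promoters of 4 members are shown because the gene that changed most (Irf7), the 2 with sites for STAT dimers among those that changed (Irf1 and Irf8), and a member that did not pass the test but holds all the motifs searched (Irf2) can be set side by side. RefSeq windows of 300 bases in GRCm38.p6 were searched on both strands for GAS (TTCNNNGAA, bound by STAT dimers), ISRE (GAAA, any 2 bases, GAAA, bound by ISGF3 and interferon regulatory factors) and the NF-kB consensus. Those shown for Irf1, Irf2 and Irf8 run from 250 before to 50 after the annotated gene start. The Irf7 window is placed differently, since the annotated gene, on the minus strand, begins at 141266499. The windows are Irf1 at chr11:53769764-53770063 (plus strand), Irf8 at chr8:120736108-120736407 (plus strand), Irf2 at chr8:46739495-46739794 (plus strand) and Irf7 at chr7:141266375-141266674 (minus strand). Capitals mark the matches, written 5′ to 3′ along the gene.
Irf1: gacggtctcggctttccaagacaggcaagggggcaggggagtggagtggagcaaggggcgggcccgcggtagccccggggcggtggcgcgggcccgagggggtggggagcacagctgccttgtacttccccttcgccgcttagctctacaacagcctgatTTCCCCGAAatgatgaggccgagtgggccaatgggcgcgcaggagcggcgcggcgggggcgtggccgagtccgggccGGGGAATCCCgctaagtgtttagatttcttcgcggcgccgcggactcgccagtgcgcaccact
Irf8: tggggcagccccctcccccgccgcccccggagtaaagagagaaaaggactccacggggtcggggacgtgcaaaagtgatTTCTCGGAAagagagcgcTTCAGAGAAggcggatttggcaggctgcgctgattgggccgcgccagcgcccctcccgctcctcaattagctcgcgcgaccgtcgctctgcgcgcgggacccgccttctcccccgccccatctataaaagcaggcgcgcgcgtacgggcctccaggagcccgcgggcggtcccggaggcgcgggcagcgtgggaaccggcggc
Irf2: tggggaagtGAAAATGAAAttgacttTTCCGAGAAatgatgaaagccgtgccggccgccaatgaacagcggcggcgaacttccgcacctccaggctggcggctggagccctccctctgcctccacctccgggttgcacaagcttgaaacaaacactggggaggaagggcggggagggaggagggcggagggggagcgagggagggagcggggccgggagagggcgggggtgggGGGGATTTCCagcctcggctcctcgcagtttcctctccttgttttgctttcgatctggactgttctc
Irf7: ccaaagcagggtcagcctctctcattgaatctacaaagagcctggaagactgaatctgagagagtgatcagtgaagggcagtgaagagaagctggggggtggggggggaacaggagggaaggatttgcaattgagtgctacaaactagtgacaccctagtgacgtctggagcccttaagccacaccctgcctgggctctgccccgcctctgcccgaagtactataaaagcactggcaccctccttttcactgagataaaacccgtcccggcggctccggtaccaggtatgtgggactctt

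Irf1 held a GAS match at position -90 from the start and an NF-kB match at position -13 that reads on both strands. Irf8 held 2 GAS matches, at -171 and -153. Irf2 held an ISRE match at -241, a GAS match at -224 and an NF-kB match at -17, none of which overlap. The 11 windows matched to the 8 members gave no other match, so none of the searched letters occur in the windows of Irf3, Irf4, Irf5, Irf7 or Irf9. The Irf5 window, from 29526375, also lies differently from those of Irf1, Irf2 and Irf8, since the annotated gene starts at 29526130. For Irf5 and Irf7 the absence of a match thus covers another stretch around the gene start. Of 32851 mouse promoter windows of the same length, 8.30% held GAS, 3.44% held ISRE and 8.46% held the NF-kB consensus. A match of this kind describes the letters only and does not show a bound site.

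Before the results, libraries that stood apart are given once. The labelled tissue was checked against spleen genes, and the B cell gene Cd79b read 9.58 to 13.1 and the T cell gene Cd3e 7.57 to 10.2 across the 28 arrays, while Spic, which marks red pulp macrophages, read 7.71 to 11.8. Xist was high throughout the wild-type-only experiment (12 arrays) and on 6 of 16 arrays in the two-genotype experiment. Cpa1, a pancreatic enzyme gene, was high on 4 arrays, 2 in each experiment, and those in the two-genotype experiment were both null mice without LPS. The mean of 10 erythroid genes differed widely between arrays: it was 4.93 to 7.21 with LPS and 6.30 to 11.3 without in the wild-type-only experiment, 7.09 to 10.4 and 7.28 to 12.5 in null mice, and 5.15 to 6.77 and 9.80 to 12.7 in wild-type mice of the two-genotype experiment. The probe set of the targeted gene, Pparg, read 3.70 or less on every array, but where it lies relative to the deletion is unknown here, which leaves the genotype labels unchecked by it.

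The first comparison asked what LPS did to the family in wild-type spleen. Irf7, Irf1, Irf4, Irf9 and Irf8 rose, and no member fell. Among these the log2 changes ran from 0.99 for Irf8 to 4.09 for Irf7. Irf2, Irf3 and Irf5 did not pass the test. This count of 5 of 8 that rose (adjusted p under 0.05, limma with Benjamini-Hochberg adjustment over 13458 genes in 20 wild-type arrays, experiment as a term) stands beside 16.7% of all genes that rose, 14.1% that fell and 30.9% that changed in either direction. The median log2 change over the 8 members was 1.00, against -0.00 over all genes tested.

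Irf7, which drives type I interferon genes and is itself induced by interferon, had the largest change of the family in every LPS comparison made. Its wild-type-only values were 6.71 at the lowest, 7.29 at the median and 7.91 at the highest over the 8 arrays with LPS, against 4.38 and 3.81 on ABA and 3.52 and 3.52 on the control diet without. Arrays of several groups are given with the ABA replicates before the control diet replicates here and below. Wild-type mice of the two-genotype experiment read 12.02, 12.21, 12.37 and 12.94 with LPS, against 7.69, 6.29, 8.15 and 7.74 without. Every array with LPS lay above every array without LPS in both experiments. The log2 change was 4.09 ± 0.28 (SE), a 17.03-fold higher value (adjusted p = 1.97e-08). With no term for the experiment it was 3.34 ± 1.11 and missed the threshold (adjusted p = 0.0664), as did the changes on each diet alone (0.439 on ABA and 0.319 on the control diet).

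Irf1, an activator of antigen processing and interferon-gamma response genes, followed. Its wild-type-only values were 10.55 to 12.52 with a median of 11.93 over the 8 arrays with LPS, against 8.56, 9.67, 10.04 and 9.47 without. In wild-type mice of the two-genotype experiment it read 12.13, 13.25, 13.02 and 13.34 with LPS, against 8.40, 9.83, 10.10 and 9.82 without. The groups did not overlap in either experiment. The log2 change was 2.81 ± 0.26 (7.02-fold, adjusted p = 8.29e-07), and it stayed past the threshold under all 35 other settings tried.

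Irf9, the DNA-binding part of ISGF3, rose by about 1 log2 unit. It read 8.59 to 9.19 with a median of 8.91 over the 8 arrays with LPS of the wild-type-only experiment, against 8.50, 8.16, 8.03 and 7.80 without. Wild-type arrays of the two-genotype experiment read 9.42, 9.91, 9.59 and 10.15 with LPS, against 8.59, 7.93, 8.81 and 8.48 without. Again no array without LPS reached the lowest array with LPS, though in the wild-type-only experiment the gap was small. The log2 change was 1.01 ± 0.15 (2.01-fold, adjusted p = 8.82e-05).

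Irf8, needed for dendritic cell and monocyte development, read 9.98 to 11.06 with a median of 10.67 with LPS in the experiment with wild-type mice only, against 9.32, 9.76, 9.95 and 9.83 without. In wild-type mice of the two-genotype experiment it read 11.74, 12.60, 12.81 and 13.40 with LPS, against 10.45, 11.77, 12.26 and 11.53 without. The groups were separate in the first experiment by a narrow margin and overlapped in the second. The log2 change was 0.99 ± 0.19 (1.99-fold, adjusted p = 0.00117). A second Irf8 probe set rose by 1.66 ± 0.32 (adjusted p = 0.000964).

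Irf4, which acts in plasma cell and lymphocyte differentiation, was the most variable member without LPS. It read 7.56 to 9.18 with a median of 8.16 with LPS in the experiment with wild-type mice only, against 5.38, 7.16, 7.80 and 7.94 without. Wild-type arrays of the two-genotype experiment read 7.84, 8.98, 8.81 and 9.5 with LPS, against 6.01, 8.20, 7.67 and 7.38 without. The groups overlapped in both experiments, and 1 array without LPS in each lay far below the rest. The log2 change was 1.31 ± 0.32 (2.48-fold, adjusted p = 0.00483). A second Irf4 probe set changed by 0.29 ± 0.24 (adjusted p = 0.387). On 11 of the 16 two-genotype arrays that probe set lay within 0.5 of the lowest value of any probe set in that experiment.

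**Figure D1:**
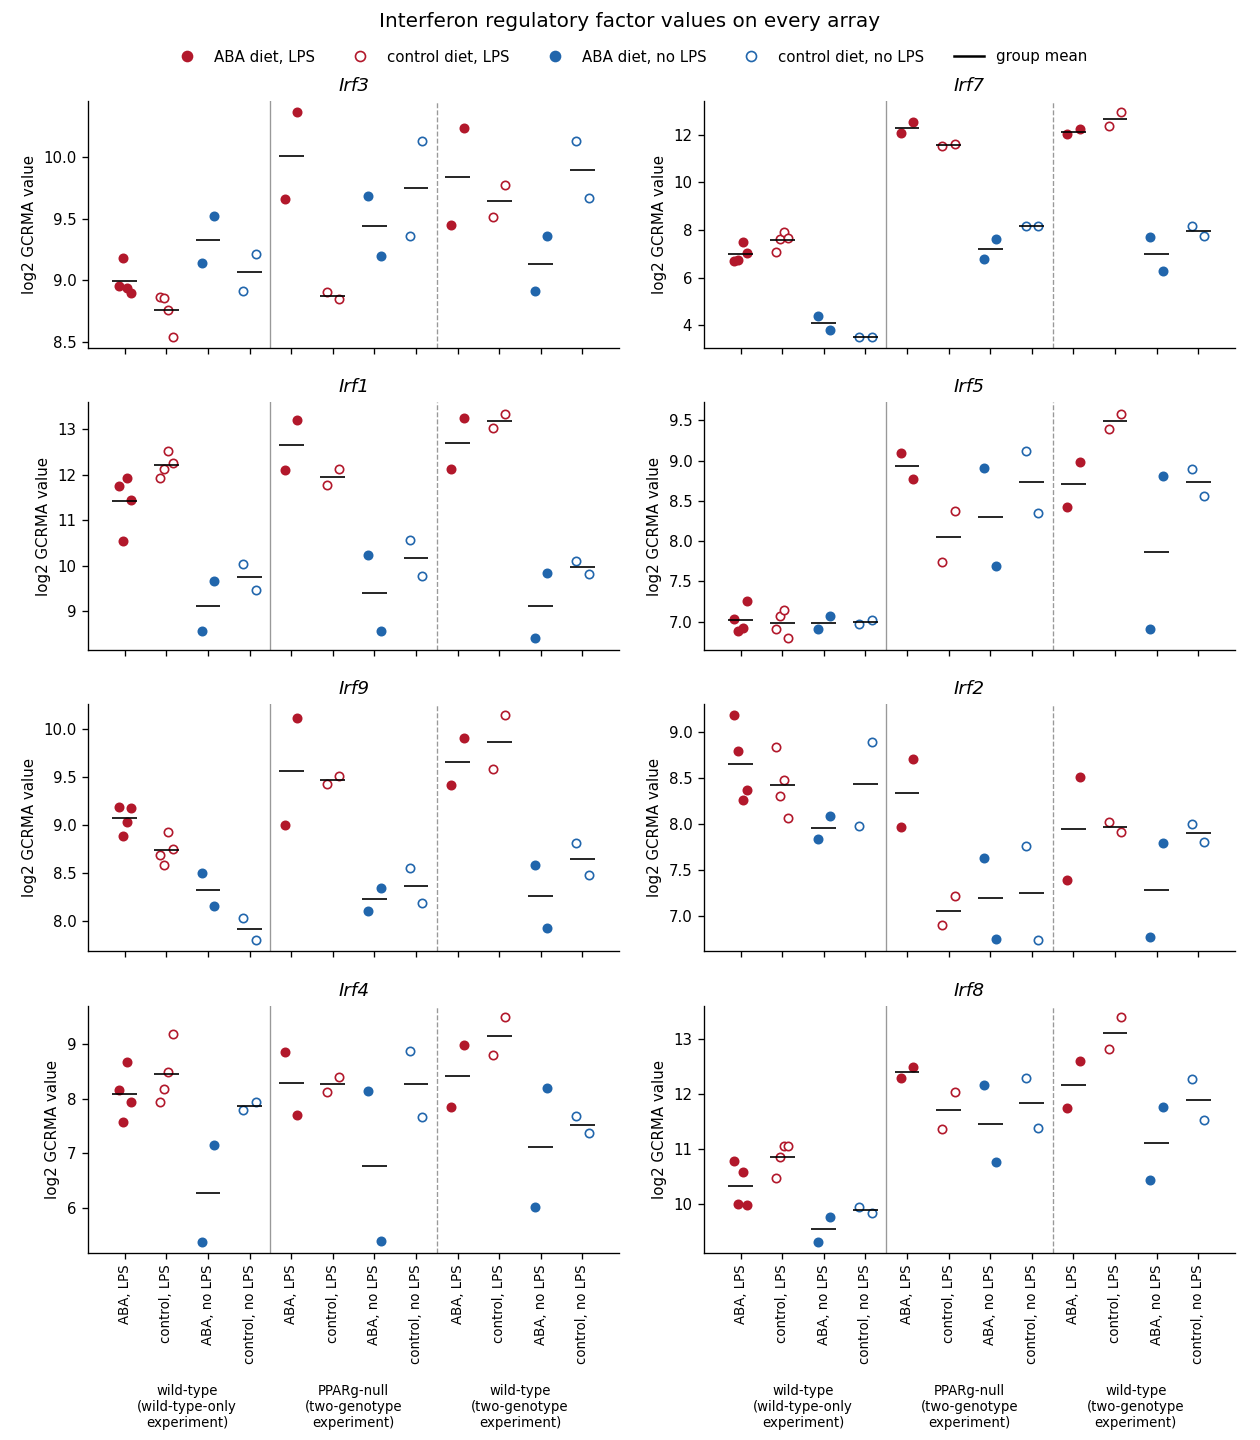
The log2 GCRMA value of each of the 8 interferon regulatory factors is plotted for every array (points), grouped along the horizontal axis by genotype, challenge and diet, with the group mean as a line. Values with LPS (red) lie above those without (blue) for Irf7, Irf1 and Irf9 in every genotype and experiment, while Irf3, Irf5 and Irf2 overlap, and levels are not comparable between the 2 experiments, which a solid line divides.

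The other members did not pass the test. Irf3, the first-line activator of interferon-beta transcription that is held in the cytoplasm until phosphorylated, changed by -0.09 ± 0.15 (adjusted p = 0.702), and its values were 8.54 to 9.18 with LPS and 8.91 to 9.52 without in the wild-type-only experiment. Irf5, which acts with MyD88 on inflammatory cytokine genes, changed by 0.35 ± 0.23 (adjusted p = 0.264). In the wild-type-only experiment Irf5 was nearly level, at 6.79 to 7.26 with LPS and 6.91 to 7.07 without. Irf2, the antagonist of Irf1, changed by 0.35 ± 0.19 (adjusted p = 0.167). The Irf2 and Irf3 probe sets have the suffixes _s_at and _x_at, which the array's maker uses for probes that can match more than 1 transcript, so their values are less certain to belong to 1 gene. Of 3 further Irf3 probe sets, 1 changed by -0.77 ± 0.25 on the control diet (adjusted p = 0.0433), and all 3 missed the threshold with diets averaged.

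The order of changes was the same at the top in both experiments fitted alone. In the wild-type-only experiment the log2 changes were 3.47 ± 0.20 for Irf7, 2.38 ± 0.30 for Irf1, 1.20 ± 0.37 for Irf4, 0.88 ± 0.19 for Irf8 and 0.78 ± 0.10 for Irf9, all 5 past the threshold. With only the 8 wild-type arrays of the two-genotype experiment they were 4.92 ± 0.37 for Irf7 and 3.39 ± 0.44 for Irf1, both past it. Irf4 at 1.47 ± 0.60, Irf9 at 1.31 ± 0.25 and Irf8 at 1.14 ± 0.43 were of like size there and missed it. The arrays of the 2 groups that do not overlap put 4 members higher with LPS in the experiment with wild-type mice only (Irf1, Irf7, Irf8, Irf9), beside 9.56% of all genes, and 3 in wild-type mice of the two-genotype experiment (Irf1, Irf7, Irf9), beside 9.47%.

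Erythroid genes moved with the LPS groups, and all 10 fell in the 20-array fit with a median log2 change of -4.21. The 3 lowest Irf4 values of the series, 5.38 in a wild-type mouse of the wild-type-only experiment and 5.39 in a null and 6.01 in a wild-type mouse of the two-genotype experiment, all without LPS and on the ABA diet, came from arrays with erythroid means of 11.3, 12.0 and 12.7. The null array among them, replicate 2 on ABA, is also one of those with high Cpa1, at 13.5. With experiment means subtracted, the Pearson correlation of Irf4 with the erythroid mean was -0.75 over all 28 arrays. It was -0.68 over the 12 arrays without LPS and -0.45 over the 16 with LPS. Other arrays with erythroid means in or near that range had higher Irf4 values. In the two-genotype experiment the 2 wild-type arrays on the control diet without LPS had means of 11.8 and 11.9 and read 7.67 and 7.38, and without LPS null replicate 2 on the control diet (12.5) read 7.66 and null replicate 1 on ABA (11.1) read 8.15. With the erythroid mean as a covariate the LPS change of Irf4 was 0.06 ± 0.45 (adjusted p = 1.00) and that of Irf8 0.44 ± 0.33 (adjusted p = 0.530). Irf7 at 4.04 ± 0.53, Irf1 at 1.95 ± 0.42 and Irf9 at 1.01 ± 0.28 stayed past the threshold. In these bulk samples fewer cells of a type and less RNA per cell cannot be told apart.

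**Figure D2:**
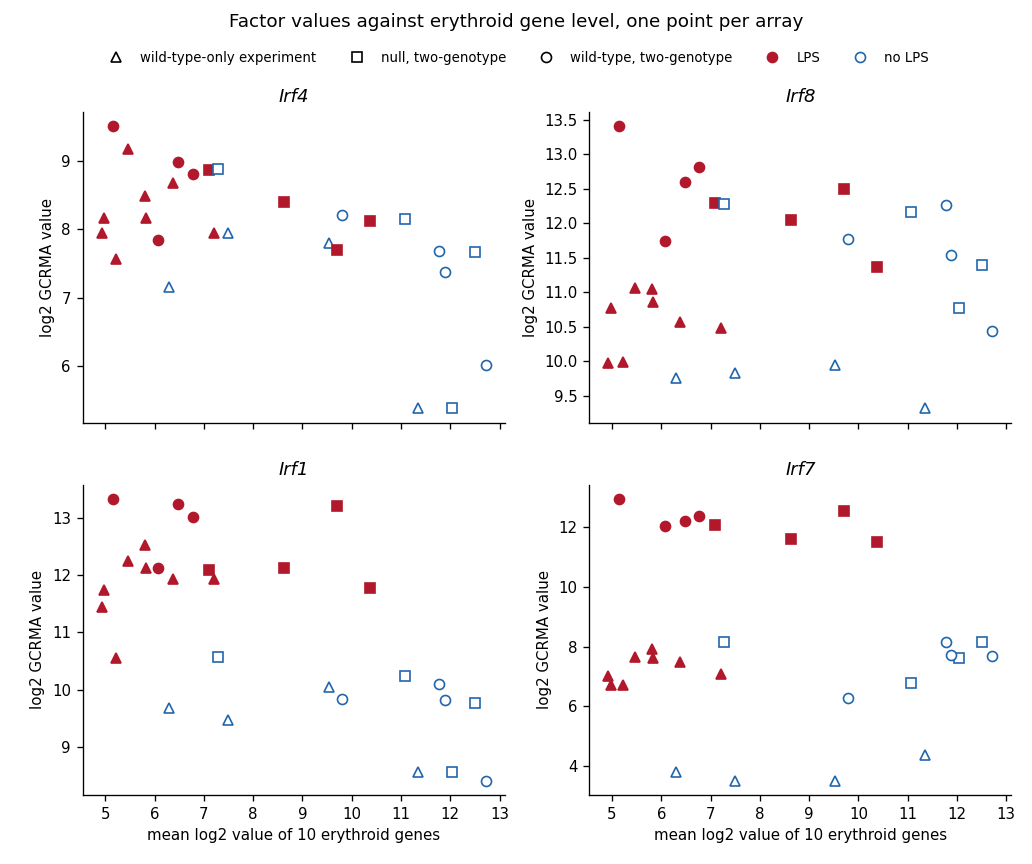
Each point is 1 array, with the mean log2 value of 10 erythroid genes on the horizontal axis and the log2 GCRMA value of Irf4, Irf8, Irf1 or Irf7 on the vertical axis; colour gives LPS or no LPS and shape gives genotype and experiment. The lowest Irf4 values, 5.38 to 6.01, sit at erythroid means of 11.3 to 12.7, a range that also holds arrays with Irf4 at 7.38 to 7.67. Irf7 separates by LPS within each experiment. In wild-type mice of the two-genotype experiment the erythroid mean does so too, at 5.15 to 6.77 with LPS and 9.80 to 12.7 without, so LPS and erythroid level cannot be told apart there.

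Members of other cell type lists also passed the test, in a fit that called 30.9% of all genes. Of 9 red pulp macrophage and monocyte genes, 4 fell and 0 rose in the 20-array fit (median -0.75). Of 9 B cell genes, 3 fell and 0 rose (median -0.35), and of 5 plasma cell genes, 1 rose and 1 fell. The log2 of the summed macrophage and monocyte level was 12.4 to 13.02 with LPS and 14.4 to 14.9 without in the wild-type-only experiment, where Ccr2 stood at the floor of the scale on every LPS array. It was 13.6 to 14.3 with LPS and 15.3 to 16.2 without in null mice, and 13.4 to 14.5 and 14.9 to 15.99 in wild-type mice of the two-genotype experiment. Of 9 neutrophil genes, 3 rose in the 20-array fit, 4 in null mice and 6 in wild-type mice of the two-genotype experiment, beside 16.7%, 3.95% and 8.55% of all genes. Their summed log2 level was 15.2 to 16.03 with LPS and 12.7 to 14.2 without in null mice, 15.5 to 16.5 and 12.5 to 14.7 in wild-type mice of that experiment, and 13.4 to 14.8 and 13.7 to 15.04 in the wild-type-only experiment, where the groups overlapped. In the 20-array fit 2 of 5 conventional dendritic cell genes rose and 2 fell, as did 1 and 1 of 6 plasmacytoid dendritic cell genes, 1 and 3 of 9 T cell genes, 2 and 1 of 6 natural killer cell genes, and 2 and 2 of 8 endothelial and stromal genes. Of the megakaryocyte, pancreas and adipose lists, 1 pancreas gene fell. The part of these cell types in the results of the family was not tested.

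Split by diet, LPS called 5 members in wild-type mice on the ABA diet (Irf1, Irf4, Irf7, Irf8, Irf9), beside 8.93% of all genes that rose, and 4 on the control diet (Irf1, Irf7, Irf8, Irf9), beside 10.6% (either direction 15.3% and 18.1% in that diet order). Irf7 changed by 3.90 ± 0.39 on the ABA diet and 4.28 ± 0.39 on the control diet, and Irf1 by 2.84 ± 0.37 and 2.79 ± 0.37. Irf4 changed by 1.58 ± 0.44 on the ABA diet (adjusted p = 0.0246) and 1.05 ± 0.44 on the control diet (adjusted p = 0.115). The difference between the diets was tested itself: 0 of 8 members passed, 0 at an unadjusted p under 0.05 (limma), and 0% of all genes. For Irf4 that difference was 0.53 ± 0.62 and for Irf2, which had the largest, 0.69 ± 0.37 (adjusted p = 0.956). Both Irf4 and Irf8 lost their ABA diet call when single arrays were left out. For Irf4 these were ABA replicate 3 with LPS (adjusted p = 0.0506) and replicate 1 without LPS (0.115) of the wild-type-only experiment, and replicate 1 without LPS (0.0822) and replicate 2 with LPS (0.0613) of the two-genotype experiment. For Irf8 they were ABA replicates 1 and 3 with LPS and 1 without LPS of the wild-type-only experiment (adjusted p = 0.0546, 0.0558 and 0.0762), and the same 2 arrays of the two-genotype experiment as for Irf4 (0.0925 and 0.0720).

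The second comparison asked whether the family responds to LPS without PPARg in the spleen. In null mice Irf7, Irf1 and Irf9 rose and no member fell, 3 of 8, beside 3.95% of all genes that rose, 3.45% that fell and 7.4% that changed in either direction (limma over 13377 genes, 16 arrays of the two-genotype experiment). The same 3 rose in the wild-type mice of that fit, beside 8.55% that rose and 14% in either direction.

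In null mice Irf7 read 12.05, 12.52, 11.51 and 11.61 with LPS, against 6.79, 7.63, 8.15 and 8.15 without. Irf1 read 12.09, 13.21, 11.77 and 12.13 with LPS, against 10.23, 8.56, 10.57 and 9.77 without. Irf9 read 9.0, 10.12, 9.43 and 9.51 with LPS, against 8.11, 8.35, 8.55 and 8.19 without. For these 3 every null array with LPS lay above every null array without LPS, beside 6.5% of all genes that did so.

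The log2 changes in null mice, set beside those of wild-type mice in the same fit, were 4.24 ± 0.31 and 4.92 ± 0.31 for Irf7 (adjusted p = 0.000118 and 4.29e-05), 2.52 ± 0.48 and 3.39 ± 0.48 for Irf1 (0.0157 and 0.00267), and 1.22 ± 0.27 and 1.31 ± 0.27 for Irf9 (0.0285 and 0.0144). Irf4 changed by 0.75 ± 0.69 in null and 1.47 ± 0.69 in wild-type mice, and Irf8 by 0.40 ± 0.43 and 1.14 ± 0.43, none past the threshold. The second Irf8 probe set changed by 0.76 ± 0.49 in null mice (adjusted p = 0.411) and rose by 1.78 ± 0.49 in wild-type mice (adjusted p = 0.0418). Irf5 changed by -0.02 ± 0.43 in null and 0.80 ± 0.43 in wild-type mice, and Irf2 by 0.48 ± 0.37 and 0.37 ± 0.37. Irf3 was the only member with opposite signs of more than 0.1, at -0.15 ± 0.26 in null and 0.23 ± 0.26 in wild-type mice, again without passing.

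The values of Irf4 and Irf8 in null mice moved with single arrays. Without the 2 null arrays with high Cpa1 both turned below 0, to -0.24 ± 0.67 for Irf4 and -0.17 ± 0.46 for Irf8. Irf4 was 0.06 ± 0.62 without replicate 2 and 1.44 ± 0.62 without replicate 1 of the null ABA group without LPS.

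The Irf1 and Irf9 calls rested on few arrays. Without the 2 null arrays with high Cpa1, Irf1 changed by 1.90 ± 0.52 in null mice (adjusted p = 0.0649) and Irf9 by 1.19 ± 0.36 (0.0868). Irf1 in null mice also lost its call without replicate 2 with LPS on the ABA diet (0.0505) or on the control diet (0.0523). Irf9 in null mice lost it without either ABA array without LPS (0.0888 and 0.0583), without replicate 2 with LPS on the ABA diet (0.0563), without replicate 2 without LPS on the control diet (0.0539), or without either control diet array with LPS (0.0786 and 0.0783). In wild-type mice Irf9 lost its call without replicate 2 with LPS on the ABA diet (0.0583) or on the control diet (0.0624). With the erythroid mean as a covariate, Irf1 changed by 2.24 ± 0.53 in null mice (adjusted p = 0.0287) and 2.54 ± 0.86 in wild-type mice (0.129), and Irf9 by 1.30 ± 0.31 (0.0302) and 1.56 ± 0.51 (0.117). Irf9 in null mice also lost its call with no filter on low values and with array weights. Irf7 kept its call in both genotypes under all 28 other settings.

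**Figure D3:**
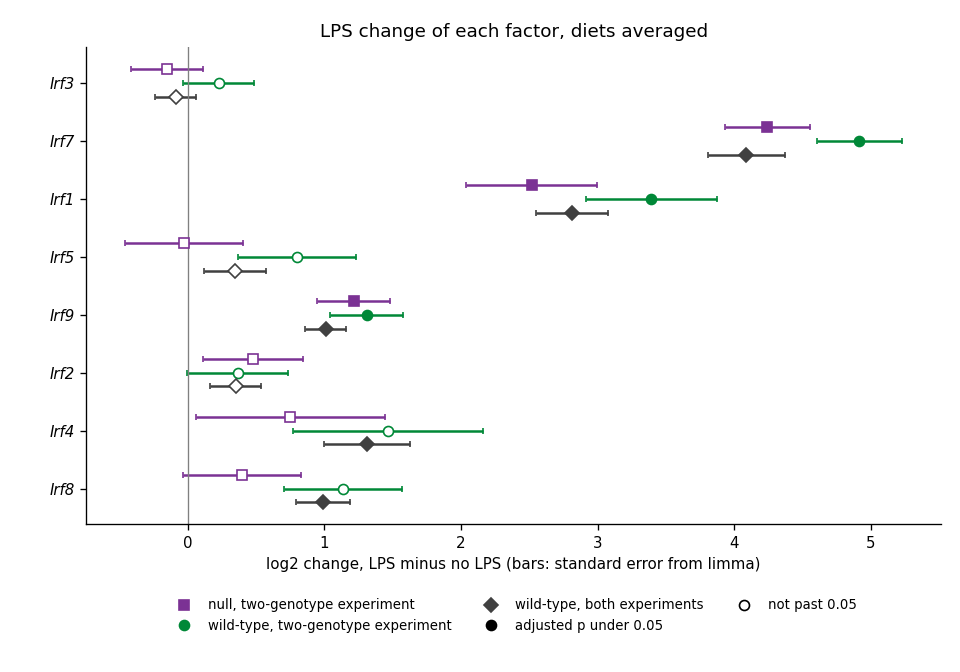
For each factor the log2 change with LPS, diets averaged, is given on the horizontal axis for null mice and wild-type mice of the two-genotype experiment and for the wild-type mice of both experiments, with the standard error from limma as bars and filled symbols for adjusted p under 0.05. Irf7, Irf1 and Irf9 are filled in all 3 comparisons, and Irf4 and Irf8 only in the 20-array fit; both genotypes of the two-genotype experiment share the 16-array fit.

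Genotype itself called no member. In LPS-challenged mice all 8 members were lower in null than in wild-type mice on average, by log2 differences of -0.25 (Irf9) to -0.63 (Irf1) with a median of -0.49, against -0.02 over all genes tested. None passed (0 of 8, 0 at an unadjusted p under 0.05, limma, beside 0.0299% of all genes), and for 0 of 8 were the groups separate, beside 1.36% of all genes separate and higher and 0.905% separate and lower in null mice. The 95% intervals were -1.73 to 0.46 for Irf1 and -1.17 to 0.24 for Irf7, so neither a fall of more than 2-fold nor an absence of change lies outside them. The erythroid mean was 7.09 to 10.4 in null and 5.15 to 6.77 in wild-type mice with LPS, with no overlap. With that mean as a covariate the differences ran from -0.75 ± 0.39 for Irf7 to 0.61 ± 0.69 for Irf4, 4 below and 4 above 0.

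Without LPS the null minus wild-type differences ran from -0.37 ± 0.37 for Irf2 to 0.24 ± 0.48 for Irf1, with a median of 0.17 (0 of 8 passed, 0 at an unadjusted p under 0.05, beside 0.00748% of all genes). Of the 4 null arrays without LPS, 2 had high Cpa1, against 0 of the 4 wild-type arrays. The LPS changes that follow draw on the same arrays. The LPS change was smaller in null than in wild-type mice for 7 of 8 members, by -0.10 ± 0.38 (Irf9) to -0.88 ± 0.68 (Irf1), and 0.11 ± 0.52 larger for Irf2. That interaction was not past the threshold for any member (0 of 8, 0 at an unadjusted p under 0.05, beside 0.0299% of all genes; lowest adjusted p = 0.943).

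The group means of Irf7 are given in order. In the two-genotype experiment, wild-type mice on the control diet with LPS averaged 12.66 ± 0.41, null mice on ABA with LPS 12.29 ± 0.33, wild-type mice on ABA with LPS 12.11 ± 0.14 and null mice on the control diet with LPS 11.56 ± 0.07 (SD, n = 2 each). Below them came null and wild-type mice on the control diet without LPS at 8.15 ± 0.00 and 7.94 ± 0.29, and null and wild-type mice on ABA without LPS at 7.21 ± 0.60 and 6.99 ± 0.99. The SD of 0.00 comes from tied values and is not a measured spread. Both null arrays and wild-type replicate 1 on the control diet without LPS held exactly the same Irf7 value, for a reason that was not tested. The step of more than 3 log2 units lies between the groups with and without LPS, and among the 3 highest groups no mean differs from the next by more than the larger SD of the pair. Null mice on the control diet with LPS lay below wild-type mice on ABA with LPS by more than either SD.

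The third comparison asked what ABA did. In LPS-challenged wild-type mice Irf1, Irf8, Irf7, Irf4 and Irf5 were lower on ABA on average and Irf2, Irf3 and Irf9 higher, and none passed (0 of 8, 1 at an unadjusted p under 0.05, limma, beside 0.0149% of all genes). The largest differences were -0.69 ± 0.33 for Irf1 (adjusted p = 0.948) and -0.67 ± 0.24 for Irf8 (unadjusted p = 0.0147, adjusted p = 0.919). The second Irf8 probe set differed by -0.24 ± 0.40 (adjusted p = 1.00). In the wild-type-only experiment with LPS, Irf1 read 11.74, 10.55, 11.93 and 11.44 on ABA, against 11.93, 12.13, 12.52 and 12.25 on the control diet. Irf8 read 10.77, 9.997, 10.58 and 9.98 on ABA, against 10.48, 10.86, 11.05 and 11.06 on the control diet. Every ABA array lay below every control diet array for Irf1, the closest pair by less than the rounding shown, and the diets overlapped for Irf8. Irf3 was separate the other way, at 8.90 to 9.18 on ABA and 8.54 to 8.86 on the control diet. That is 1 member of 8 separate and lower on ABA, beside 3.82% of all genes, and 1 separate and higher, beside 1.97%.

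Without LPS, wild-type mice on ABA had lower means of 7 members, from -0.19 ± 0.43 for Irf7 to -1.01 ± 0.48 for Irf4, and Irf9 differed by 0.01 ± 0.22 (0 of 8 passed, 0 at an unadjusted p under 0.05, beside 0.00743% of all genes). Irf7 without LPS was lower on ABA in the two-genotype experiment, at 7.69 and 6.29 on ABA against 8.15 and 7.74 on the control diet, and higher in the wild-type-only experiment, at 4.38 and 3.81 against 3.52 and 3.52, and 4.24% of all genes showed such opposite and separate groups. The values of 3.52 are an exact tie, at the lowest value of the Irf7 probe set in that experiment. In null mice without LPS all 8 were lower on ABA, by -0.06 ± 0.52 (Irf2) to -1.50 ± 0.98 (Irf4), and none passed (0 at an unadjusted p under 0.05, beside 0.179% of all genes). The low Irf4 arrays named above, with erythroid means of 11.3 to 12.7, are all in these ABA groups. The null one, replicate 2 with Cpa1 at 13.5, also read lower than replicate 1 for Irf1 (8.56 against 10.23). The LPS change of Irf4 in null mice without that array, 0.06 ± 0.62, is given above. Why the array read lower was not tested.

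In null mice with LPS the direction was the other one. All 8 members were higher on ABA, with a median log2 difference of 0.71, against 0.02 over all genes tested. None passed (0 of 8, 2 at an unadjusted p under 0.05, limma, beside 0.0972% of all genes). Those 2 were Irf3, which read 9.66 and 10.37 on ABA, against 8.90 and 8.84 on the control diet (1.14 ± 0.37, unadjusted p = 0.0135, adjusted p = 0.415), and Irf2, which read 7.97 and 8.70 on ABA, against 6.90 and 7.21 on the control diet (1.28 ± 0.52, unadjusted p = 0.0361, adjusted p = 0.579). In both the 2 ABA arrays lay above the 2 control diet arrays, as they did for 5 of the 8 members (Irf2, Irf3, Irf5, Irf7, Irf8), beside 25.1% of all genes.

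Wild-type mice with LPS in the same experiment had 7 members lower on ABA (median -0.52). None passed (0 of 8, 0 at an unadjusted p under 0.05, limma, beside 0.232% of all genes). This contrast was added after the data were seen. Irf5 read 9.09 and 8.77 on ABA against 7.74 and 8.38 on the control diet in null mice, and 8.43 and 8.98 on ABA against 9.39 and 9.58 on control feed in wild-type mice. Irf8 read 12.29 and 12.50 on ABA against 11.37 and 12.04 on the control diet in null mice, and 11.74 and 12.60 against 12.81 and 13.40 in wild-type mice. Irf7 read 12.05 and 12.52 on ABA against 11.51 and 11.61 on the control diet in null mice, and 12.02 and 12.21 against 12.37 and 12.94 in wild-type mice. For these 3 members the arrays of the 2 diets were separate in each genotype, in opposite directions, as they were for 7.2% of all genes. In wild-type mice these 3 were the members separate and lower on ABA, beside 19.8% of all genes.

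The difference between the genotypes in the ABA effect with LPS, a contrast added after the data were seen, was above 0 for all 8 members with a median of 1.23, against 0.04 over all genes tested. It was 1.66 ± 0.86 for Irf5 (adjusted p = 0.749), 1.62 ± 0.86 for Irf8 (0.762) and 1.27 ± 0.62 for Irf7 (0.723), and 0 of 8 passed (0 at an unadjusted p under 0.05, limma, beside 0.127% of all genes). For the second probe sets it was 2.27 ± 0.97 for Irf8 (adjusted p = 0.648) and -0.14 ± 0.19 for Irf5. The second Irf5 probe set read only 2.52 to 3.27 in this experiment. Both wild-type arrays on the control diet with LPS had high Xist and both on ABA had low Xist, so Xist level and diet cannot be told apart in those 4 arrays. With a term for high Xist, Irf5 was at 2.36 ± 0.86, Irf8 at 2.08 ± 0.96 and Irf7 at 0.56 ± 0.49, and Irf9 turned to -0.23 ± 0.48.

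**Figure D4:**
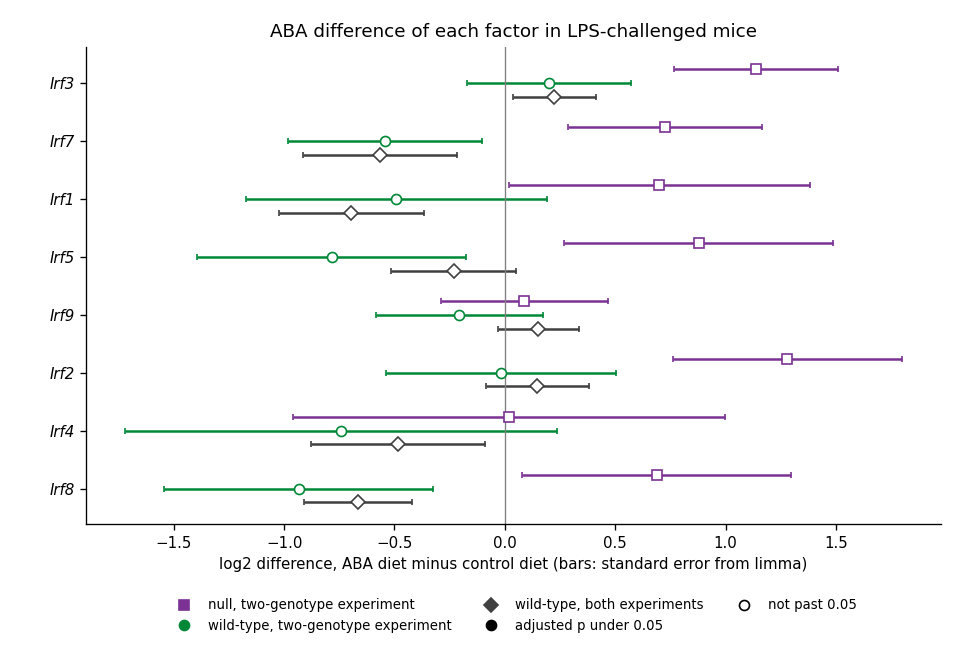
For each factor the log2 difference between ABA and control diet in LPS-challenged mice is given on the horizontal axis for null mice and wild-type mice of the two-genotype experiment and for the wild-type mice of both experiments, with the standard error from limma as bars. All symbols are open because no adjusted p was under 0.05; the null symbols lie above 0 for all 8 members, and those of wild-type mice of the two-genotype experiment lie below 0 for 7.

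Genes that act around the family were taken from 6 lists. Of 13 sensors, adaptors and kinases upstream of the factors, 8 rose and 1 fell with LPS in the 20-array wild-type fit (median 0.71), beside 16.7% and 14.1% of all genes, and 3 rose and 0 fell in null mice (median 0.45), beside 3.95% and 3.45%. Wild-type values of these lists are from the 20-array fit unless stated. The same shares of all genes stand beside the counts of the lists that follow. Ifih1 and Ddx58, the RNA sensors MDA5 and RIG-I, rose by 3.33 ± 0.24 and 2.58 ± 0.16 in wild-type mice, and Mavs, their adaptor, fell by 0.89 ± 0.23. In null mice Ifih1 rose by 3.45 ± 0.40 and Ikbke, a kinase of Irf3 and Irf7, by 2.49 ± 0.28.

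Of the interferons, their receptors and JAK-STAT partners, 4 of 10 tested rose and 1 fell in wild-type mice, and 0 of 11 passed in null mice. Ifng, which encodes interferon gamma, rose by 4.00 ± 0.66 in wild-type mice (adjusted p = 0.000259). In the two-genotype fit it changed by 2.07 ± 0.70 in null mice (adjusted p = 0.115) and rose by 3.41 ± 0.70 in wild-type mice (adjusted p = 0.0144). Jak2, a kinase of the interferon gamma receptor, rose by 0.80 ± 0.11, and Ifngr1, a chain of that receptor, fell by 0.42 ± 0.13 in wild-type mice. Of the binding partners and negative regulators of the factors, 6 of 12 rose in wild-type and 3 of 13 in null mice, and 0 fell. Socs3, an inhibitor of cytokine signalling, rose by 3.44 ± 0.16 in wild-type and 2.86 ± 0.21 in null mice, and Trim21, a ubiquitin ligase that binds interferon regulatory factors, by 2.12 ± 0.18 in null mice.

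Target genes moved most. Of 16 type I interferon target genes, 14 rose in wild-type mice (median 4.95) and 14 in null mice (median 4.60). Mx1, an antiviral GTPase, rose by 5.05 ± 0.22 and Rtp4 by 3.96 ± 0.18 in wild-type mice, and Zbp1, a nucleic acid sensor, by 5.20 ± 0.33 and Oas2, an antiviral synthetase, by 3.89 ± 0.28 in null mice. The 2 that passed in neither genotype, named after their values were seen, were Mx2, at 0.62 ± 0.40 in null and 0.51 ± 0.19 in wild-type mice, and Rsad2, at 1.65 ± 0.84 and 0.45 ± 0.34. Of the Irf1 and interferon gamma target genes, 12 of 15 rose in wild-type mice and 9 of 16 in null mice, among them the GTPase genes Gbp2 (4.75 ± 0.32 in null and 5.35 ± 0.18 in wild-type mice), Irgm1 (3.61 ± 0.13 in wild-type mice) and Igtp (4.19 ± 0.20 in null mice).

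The partners and lineage factors of Irf4 and Irf8 were mixed. Of 19, 9 rose and 4 fell in wild-type mice (median 0.33), and 4 rose and 1 fell in null mice (median 0.12). Batf, an AP-1 family factor that binds DNA with Irf4 and Irf8, rose by 2.70 ± 0.29 in null and 2.63 ± 0.22 in wild-type mice, and Cebpb, a myeloid factor, by 2.60 ± 0.19 and 2.81 ± 0.19. Klf4, a monocyte factor, fell by 1.23 ± 0.30 in null and 0.95 ± 0.21 in wild-type mice, and Id3, a lymphocyte factor, fell by 0.99 ± 0.23 in wild-type mice. No gene of the 6 lists passed in any genotype, diet or interaction contrast.

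**Figure D5:**
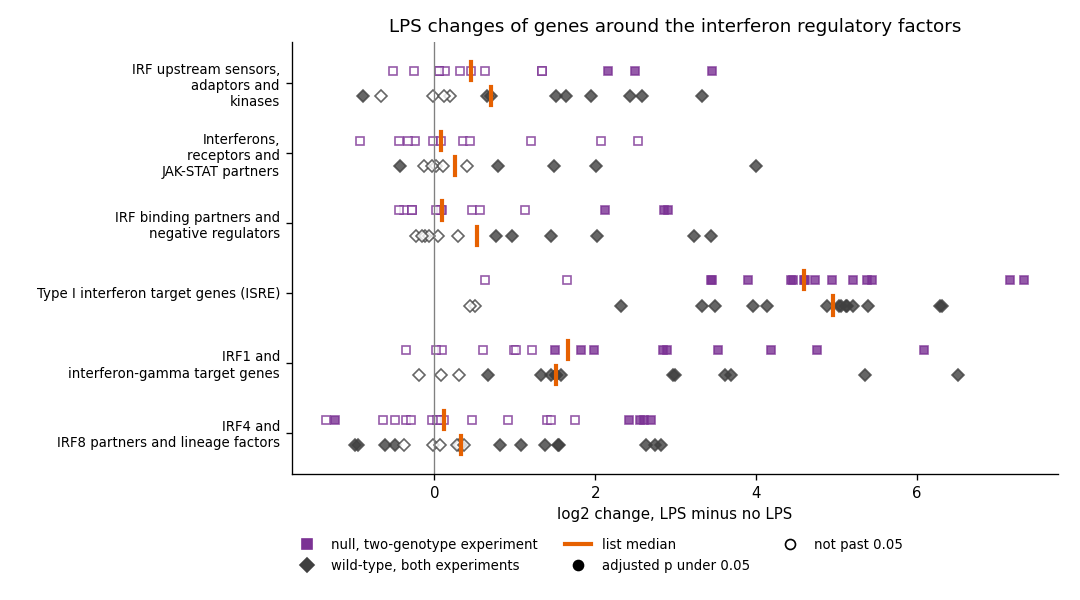
Each symbol is 1 tested gene of a list, placed by its log2 change with LPS in null mice (squares) or in the wild-type mice of both experiments (diamonds), filled where the adjusted p was under 0.05, with the list median as a bar. The type I interferon target genes have medians of 4.60 in null and 4.95 in wild-type mice, the highest of the 6 lists in both.

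The genes whose values were most like each member were found over the 28 arrays after each gene's mean in its experiment was subtracted, among 12088 genes. The arrays share the LPS groups and the erythroid differences given above, so these correlations are a description only. For Irf1 they were Psme1 and Tapbp, which serve class I antigen processing, and Icam1, an adhesion molecule, each with a Pearson correlation of 0.97. For Irf7 they were Timp1, Dhx58 and Ifit1, each at 0.98, and for Irf9 they were Uba7 (0.92), Irf7 (0.91) and Daxx (0.90). Irf4 was most like Fam118a (0.91), Rilpl2 (0.88) and M6pr (0.87), and Irf8 most like Gorasp2 (0.88), Nuak2 (0.88) and Mllt6 (0.87). The members that LPS did not call had other neighbours: Irf5 had Stat6 (0.90), Irf3 had Mark2 (0.87) and Irf2 had Actn1 (0.81). Within the family, the highest correlations were those of Irf1 with Irf7 and of Irf7 with Irf9, both 0.91, and the lowest was that of Irf3 with Irf7, at -0.03.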

How the data were processed

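RNA of mouse spleen was measured on 28 arrays, 2 to 4 per group in 12 groups taken from the labels. The authors deposited log2 values per probe set. GCRMA and limma are the tools that appear in the submitters' processing notes, without version or role. The log2 scale was read from the values, and each experiment has its own lowest value, so separate normalisation was assumed. Of the probe sets, 34945 named a single gene, 932 several and 9224 none in the platform annotation, and only those with a single gene were used. A gene with several was taken at the one of highest mean.

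The filter on low values worked array by array. On each array the cut-off was the 40th percentile of its probe set values. A gene was kept when it exceeded this cut-off on enough arrays, a number set by the size of the smallest group. The tests used lmFit and eBayes of limma 3.58.1 under R 4.3.3. One fit held the 20 wild-type arrays and a term for the experiment, over 13458 genes, with 15 residual and 0.772 prior degrees of freedom. The other held the 16 arrays of the two-genotype experiment as 8 group means (13377 genes, 8 residual and 0.981 prior degrees of freedom). P-values were adjusted by Benjamini and Hochberg over all genes tested, with a threshold of 0.05. Errors are SE of the fit unless SD is written. The fits were tested on simulated data. Values were gathered with Python 3.11.15 and plotted with matplotlib 3.10.9.

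The members and gene lists were chosen with earlier results of these data known. All members are named. From each pathway list, up to 2 genes that rose and 2 that fell with the smallest adjusted p were named in LPS against no LPS, in wild-type and in null mice, with the 3 genes most like each member by Pearson correlation. High Xist means a log2 value over 6, and high Cpa1 more than 2 above the lowest value. Alternatives were the filter, quantile normalisation, the mean of all probe sets, array weights, a replicate block, terms for Xist and erythroid level, each experiment alone, no experiment term, and leaving out arrays.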

Additional observations from a re-analysis of the deposited data

Results flagged for a closer look

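The ABA effect in LPS-challenged mice ran in opposite directions in null and wild-type mice of the two-genotype experiment for 3 members, with no overlap between the diets in either genotype. The null minus wild-type difference in the ABA effect was 1.66 for Irf5, 1.62 for Irf8 and 1.27 for Irf7 on the log2 scale. For second probe sets it was 2.27 for Irf8 and -0.14 for Irf5, where the values were only 2.52 to 3.27. In the limma interaction none of the 3 members passed (adjusted p = 0.749, 0.762 and 0.723), and 7.2% of all genes tested showed such opposite directions. Each group held 2 arrays. Both wild-type arrays on the control diet with LPS had high Xist and both on ABA had low Xist. Diet and Xist level thus cannot be told apart in those arrays. With a term for high Xist, as given above, the difference was larger for Irf5 and Irf8 and smaller for Irf7.

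Without LPS, Irf7 was lower on ABA in wild-type mice of the two-genotype experiment, by a log2 difference of -0.95, and higher on ABA in the wild-type-only experiment, by 0.58, with no overlap between the diets in either. The difference between the experiments, -1.53, was not tested, and 4.24% of all genes tested showed such opposite directions. Both control diet arrays without LPS of the wild-type-only experiment held exactly the same Irf7 value, 3.52, the lowest of its probe set there.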

How the results depend on the processing

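Of 658 repeats of called members under other settings, 598 stayed past the threshold and 60 missed it, all with the same direction. Of 3038 repeats of values not called, 160 had the other sign and 4 were newly called, none of them with the other sign. The 5 members called with LPS in wild-type mice, diets averaged, became 3 with the erythroid covariate, 3 with no experiment term and 2 with the wild-type arrays of the two-genotype experiment alone. The 4 on the control diet became 2, 1 and 1 under those settings in that order. Irf8 also lost its control diet call with quantile normalisation, or when the wild-type-only arrays were fitted by themselves. With quantile normalisation the ABA diet call of Irf8 was lost as well. The 5 on the ABA diet became 3 with array weights, 3 with the replicate block, 3 in the wild-type-only experiment alone, 2 with the erythroid covariate, 1 with no experiment term, 1 with the two-genotype arrays alone and 3 to 6 when single arrays were left out. The 3 in wild-type mice of the two-genotype experiment became 1 with the erythroid covariate and 2 to 4 when single arrays were left out. The 3 in null mice became 1 without the arrays with high Cpa1 and 1 to 3 when single arrays were left out. Irf9 in null mice also lost its call with no filter on low values and with array weights. The cause of these changes in the counts was not tested. In the other comparisons 0 members were called under any setting.

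Whether same-numbered replicates are paired could not be decided. Correlations of deviations from group means were -0.15 to 0.38 over 14 pairs of same-numbered arrays in the wild-type-only experiment, with 5 over 0.1. They were -0.70 to 0.51 over 56 such pairs in the two-genotype experiment, with 20 over 0.1. There 28 values are distinct because the 2 arrays of a group mirror each other, so a change of numbering would only turn the sign. The number of arrays, 2 in 10 of the 12 groups, limits the precision of every diet and genotype comparison.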
